A study of Mus musculus with 6 samples.

Results

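The genes described are 54 mouse genes that act in mitotic entry, on the spindle, at the kinetochore and in cytokinesis. They were taken as a named list, and each was found by its symbol among the 53801 genes of the deposited count table. All 54 passed the filter on low counts and were tested among 13631 genes. The 6 genes that act in the final division of the cytoplasm (Ect2, Anln, Racgap1, Kif23, Prc1 and Kif20a) were treated apart from the other 48. RNA was sequenced from fetal liver cells of E12.5-13.5 embryos that carried, on B6J.129(Cg), the allele Gt(ROSA)26Sortm1.1 with the insert CAG-cas9*,-EGFP (Fezh/J), in which Cas9 and EGFP stand behind the broadly active CAG promoter. Every library came from cells with the guide sgGata1, and the sample names call them Gata1s, after a shortened GATA1, a transcription factor of blood cells. They also carried the microRNA miR-125b. Doxycycline at 1 μg/mL for 48 h then switched on Arid3a-FLAG in 3 libraries and LUC, the control construct, in the other 3. The labels do not say whether replicates were separate cultures, transductions or litters, so each p-value measures only the spread between these libraries.

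Library totals ran from 15728150 to 18249053 gene counts. The Arid3a-FLAG construct had 2758 to 3348 counts in the libraries labelled with it and 0 in each LUC library, while the mouse gene Arid3a had a log2 fold change of -0.01 (edgeR, adjusted p = 0.977). LUC library 2 stood apart on the second principal component, which held 24% of the variance. The 12 listed megakaryocyte genes summed to between 6689 and 8421 CPM, counts scaled to the library total, with LUC and between 6938 and 7474 with Arid3a-FLAG. Of these, 4 rose (Itgb3, Gp1bb, Gp9 and Gp5, by 0.63 to 0.97 on the log2 scale) and 1 fell (Ppbp, -1.01). Pf4 alone held 2971 to 4984 CPM of the sum over the 6 libraries. Of 8 hepatocyte markers 1 was tested, the fetal marker Afp, which had 18.8, 25.9 and 21.6 CPM under LUC and 19.7, 15.7 and 19.0 CPM under Arid3a-FLAG (-0.29, adjusted p = 0.245). The albumin gene Alb had at most 2 counts in any library, and Ttr and Serpina1a had 0. Mast cell and basophil markers summed to between 1928 and 2249 CPM under LUC against between 878 and 1532 with Arid3a-FLAG, and 3 of 8 tested fell. The 9 erythroid markers in the table summed to between 321 and 362 CPM under LUC against between 453 and 561 with Arid3a-FLAG, and of 8 tested 2 rose and 1 fell. Both of 2 lymphoid markers tested fell, as did 2 of 3 neutrophil markers. Of 4 monocyte and macrophage markers 1 rose, and of 3 markers of endothelium and stroma 1 rose and 1 fell. Of all genes tested 3.43% rose and 3.87% fell at an edgeR adjusted p under 0.05. The part of these shifts in the results below was not tested, and in bulk RNA fewer cells of a type and less RNA per cell cannot be told apart.

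A dividing cell enters mitosis when the kinase CDK1 binds cyclin B, condenses its chromosomes, attaches them to the spindle through kinetochores, and separates them once the anaphase-promoting complex has marked cyclin B and securin for destruction. The midzone of the spindle then places a contractile ring under the control of the GTPase RhoA, and the ring cuts the cytoplasm apart. Megakaryocytes, the cells that make platelets, copy their DNA repeatedly and enter mitosis but fail to complete cytokinesis, and so become polyploid. Loss of the RhoA activators Ect2 and Arhgef2 (GEF-H1) is known to accompany that switch.

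Most mitotic genes peak together in G2 and M, and many carry in their promoters a CHR element (cell cycle genes homology region, TTTGAA), bound by the DREAM and MuvB complexes, beside CCAAT boxes bound by NF-Y. RefSeq promoter windows on GRCm38.p6 of 300 bases, 250 before a start and 50 after it, were at hand for 48 of the 54 genes (52 windows), all but Aurkb, Ccna2, Cdc25c, Cdca2, Kif20a and Tpx2. The letters TTTGAA, on either strand, stood in the windows of 35 of these 48 genes (72.9%). By window, the letters stood in 73.1% of the members' windows, against 17.9% of all 32851 windows. Within 50 bases of the start they stood in 61.5% of the members' windows and in 4.94% of all windows. CCAAT, on either strand, was present for 38 genes (79.2%). It stood in 80.8% of the members' windows, against 37.4% of all windows, and 30 genes held TTTGAA and CCAAT in the same window. ATTAAA or ATCAAA, AT-rich letters of the kind bound by ARID3A, were present for 8 genes (16.7%). They stood in 17.3% of the members' windows, against 22.9% of all windows. TTTGAA overlaps neither of the other motifs as a whole, though single matches may share letters. A match describes the letters and is neither a binding site nor a cause.

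All 5 cytokinesis genes with a window held TTTGAA, which is the sequence feature that they share with most of the mitotic list. It is shown for them with 12 bases on each side, 5′ to 3′ on the gene's strand, with each match in capitals. Anln holds 2 matches in its stretch. TTCAAA is the same element on the opposite strand. The site of Anln lies at chr9:22389168-22389197, minus strand, that of Ect2 at chr3:27153822-27153851, minus strand, and that of Kif23 at chr9:61946780-61946809, minus strand. The site of Prc1 lies at chr7:80294434-80294463, plus strand, and that of Racgap1 at chr15:99651634-99651663, minus strand. Those of Cenpa (chr5:30666890-30666919, plus strand) and Ube2c (chr2:164769888-164769917, plus strand), genes of the mitotic list that are described below, are printed beside them.
Anln: ggggcgctgaaaTTCAAAtTTTGAAcggcc
Ect2: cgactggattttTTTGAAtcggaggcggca
Kif23: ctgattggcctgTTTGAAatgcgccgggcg
Prc1: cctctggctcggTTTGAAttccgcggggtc
Racgap1: ctggtgcgtgatTTTGAAccggatctggcg
Cenpa: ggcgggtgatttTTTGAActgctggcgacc
Ube2c: ggagggttgcaaTTCAAAcgcgggcggcgg

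The comparison asked whether mitotic and cytokinesis transcripts differed between cells with induced Arid3a-FLAG and cells with induced LUC. Of the 54 genes 3 fell, namely Cenpa, Psrc1 and Nusap1, and none rose. That is 5.56% of the list, beside 3.87% of all tested genes called lower and 3.43% called higher (edgeR's quasi-likelihood test, Benjamini-Hochberg adjusted p under 0.05 over all genes). At an unadjusted p under 0.05, 14 of the 54 were lower and 2 higher, against 13.9% and 11.7% of all genes. DESeq2 called 5 lower and 0 higher (5.8% and 5.66% of all genes), and limma-voom 3 lower and 0 higher (3.85% and 3.57%). At an adjusted p under 0.01 edgeR called none in either direction (1.01% of all genes lower and 0.917% higher). With no filter on low counts 6 were lower and 1 was higher (4.5% and 3.63%). The edgeR shares of all genes, adjusted and unadjusted, also stand beside the counts given for each smaller list below.

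The calls depended on single libraries, as did the number of calls over all genes. Without LUC library 1 Cenpa and Nusap1 were lower (1.72% of all genes were), and without LUC library 3 Cdca3 and Cenpa (3.16%). None of the 54 was lower without Arid3a-FLAG library 1, 2 or 3, where 0.843%, 1.17% and 2.55% of all genes were.

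The sizes were small. The median log2 fold change was -0.10 over the 54 genes and -0.03 over all genes, and 37 of the 54 lay below 0 (54.7% of all genes did). In 19 genes every Arid3a-FLAG library was below every LUC library (16.5% of all genes), and in 3 every one was above (16.6%). The 95% interval of the log2 fold change lay within 1 of 0 for 52 of the 54 (80.9% of all genes) and within 0.5 of 0 for 42 (46.2%). The intervals of Nek2 and Kif11 alone reached a 2-fold change. Summed over the list, the levels were 9042, 9362 and 9084 CPM in LUC libraries 1, 2 and 3 and 8549, 8552 and 8419 CPM in Arid3a-FLAG libraries 1, 2 and 3, groups that did not overlap.

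**Figure D1:**
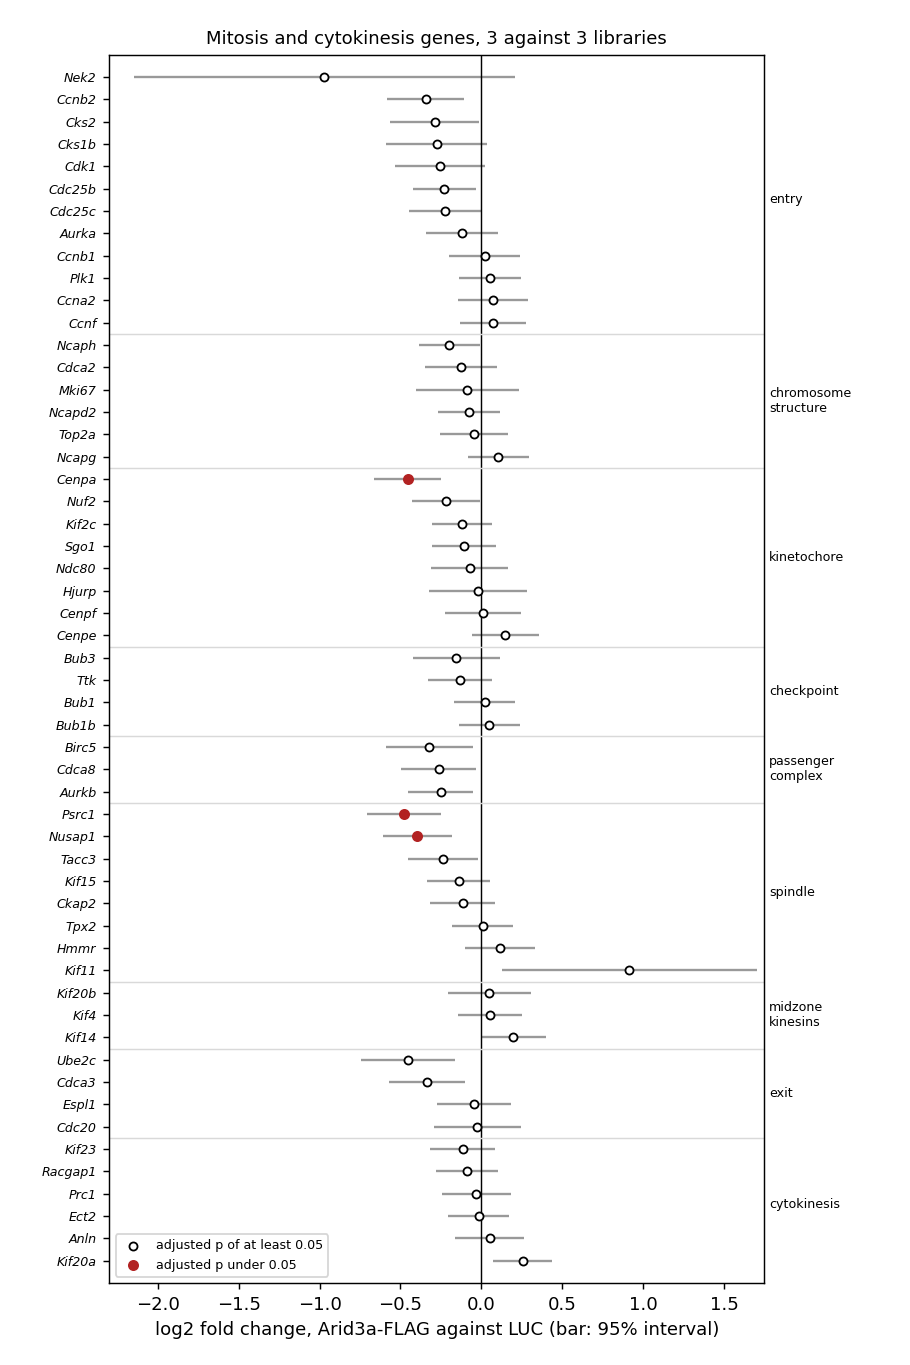
Log2 fold change of each gene, Arid3a-FLAG against LUC (points) with its 95% interval (bars), for 54 genes grouped by role; filled red points have an adjusted p under 0.05 (edgeR, 3 libraries a group). The 3 red points, Cenpa, Psrc1 and Nusap1, lie between -0.48 and -0.39, and the 6 cytokinesis genes lie between -0.12 and 0.26.

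None of the 6 cytokinesis genes passed, in edgeR, DESeq2 or limma-voom, and 1 of them, Kif20a, had an unadjusted p under 0.05. Their median log2 fold change was -0.02, beside -0.12 in the other 48 genes. With the trend on exon length taken out of each library it was -0.08, beside -0.13 over all 54 genes. The intervals of all 6 lay between -0.32 and 0.44. Their summed level was 623, 635 and 673 CPM under LUC against 638, 651 and 637 CPM under Arid3a-FLAG, and these ranges overlapped. No test compared the 6 with the 48.

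Ect2 (ENSMUSG00000027699, chromosome 3, 27097222 to 27153878, minus strand, mm10) encodes the exchange factor that loads RhoA with GTP at the cell equator. It stood at 65.3, 64.5 and 68.1 CPM under LUC against 68.2, 63.5 and 63.9 CPM under Arid3a-FLAG. The log2 fold change was -0.02 (SE 0.09, 95% interval -0.21 to 0.17, adjusted p = 0.920). The 6 values lay within 5 CPM of each other and the groups overlapped.

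Racgap1 and Kif23 form centralspindlin, the complex that bundles midzone microtubules and brings Ect2 to them. Racgap1 had 188, 213 and 197 CPM under LUC against 181, 193 and 190 CPM under Arid3a-FLAG (-0.09, SE 0.09, adjusted p = 0.561). Kif23 had 76.2, 72.8 and 85.9 CPM under LUC against 71.3, 72.0 and 73.5 CPM under Arid3a-FLAG (-0.12, SE 0.09, adjusted p = 0.457). In both genes the groups overlapped, and the LUC libraries were spread more widely than the Arid3a-FLAG libraries.

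Anln encodes anillin, the scaffold of the contractile ring, and Prc1 the crosslinker of midzone microtubules. Anln was at 78.0, 64.9 and 75.0 CPM under LUC against 79.2, 73.7 and 73.2 CPM under Arid3a-FLAG (0.05, SE 0.10, adjusted p = 0.767). Prc1 was at 131, 130.4 and 154 CPM under LUC against 129.9, 145 and 132 CPM under Arid3a-FLAG (-0.03, SE 0.10, adjusted p = 0.875). Neither gene separated the groups.

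Kif20a, the kinesin that carries Aurora B to the midzone, was the exception in order, though not in call. It had 84.7, 89.1 and 93.4 CPM under LUC against 109, 105 and 104.6 CPM under Arid3a-FLAG, so that every Arid3a-FLAG library lay above every LUC library. The log2 fold change was 0.26 (SE 0.08, 95% interval 0.07 to 0.44, adjusted p = 0.089). Without LUC library 2 the adjusted p was 0.021, and with any other library left out it ran from 0.060 to 0.283. Exons of Kif20a overlap those of Cdc23, a subunit of the anaphase-promoting complex on the opposite strand, over 1271 bases. The groups of Cdc23 stood in the same order (0.19, adjusted p = 0.214). The sources used here do not say whether counting used the strand, so the reads of Kif20a and Cdc23 in that stretch cannot be told apart. The same limit holds for all 12 of the 54 genes whose exons overlap a protein-coding gene on the opposite strand. Among them are Prc1 (911 bases shared with Rccd1), Ube2c (592 with Tnnc2) and Tacc3 (289 with Tmem129). It also holds for Nek2 (298 bases with Gm38037) and Plk1 (156 with Gm44985), whose opposite-strand partners are not annotated as protein-coding.

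**Figure D2:**
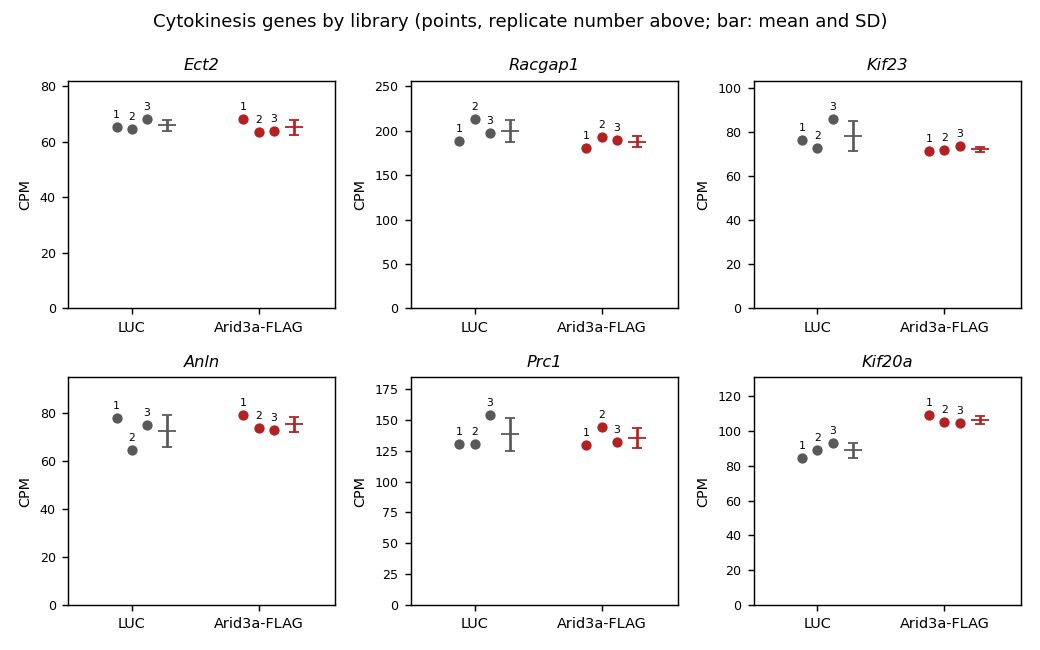
Level in CPM (y axis, from 0) of the 6 cytokinesis genes in each LUC (grey) and Arid3a-FLAG (red) library, with the replicate number above each point and the mean and SD (n = 3) beside it. The groups overlap in Ect2, Racgap1, Kif23, Anln and Prc1, while the 3 Arid3a-FLAG libraries of Kif20a (104.6 to 109 CPM) lie above the 3 LUC libraries (84.7 to 93.4 CPM).

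Other genes of cytokinesis and abscission, listed apart from these 6, gave 2 falls and no rise among 29 tested (median 0.05). Of all genes 3.87% fell and 3.43% rose. By unadjusted p under 0.05, 5 of the 29 were higher and 3 lower, against 11.7% and 13.9% of all genes. Sept9, a septin of the filaments that support the ring and the midbody, fell from 206 ± 18.6 to 111 ± 9.12 CPM (SD, n = 3), with a log2 value of -0.90, an SE of 0.10 and an adjusted p of 0.00087. It remained past the threshold in each of the 6 leave-one-out fits (adjusted p up to 0.011). Sept6, another septin, fell from 99.8 ± 3.84 to 78.4 ± 6.41 CPM (-0.35, SE 0.09, adjusted p = 0.045), and its adjusted p reached 0.230 in leave-one-out fits. Arhgef2, the RhoA activator known to fall in polyploid megakaryocytes together with Ect2, had 314 ± 11.2 CPM under LUC against 289.9 ± 17.4 CPM under Arid3a-FLAG (-0.12, SE 0.09, adjusted p = 0.450). Myh10, the non-muscle myosin whose silencing is known to accompany the same switch, had 72.4 ± 2.70 and 82.8 ± 3.71 CPM (0.19, SE 0.09, adjusted p = 0.186). None of the 15 genes listed for megakaryocyte polyploidization passed in edgeR. By unadjusted p under 0.05, 5 were higher and 1 lower, against 11.7% and 13.9% of all genes.

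Among 12 genes of cyclins, kinases and mitotic entry none passed in edgeR, with a median of -0.23 and 3 lower and 0 higher at an unadjusted p under 0.05; DESeq2 called Ccnb2 and limma-voom none. The cyclins differed in their log2 fold changes, and no test compared them with each other. Ccnb2, 1 of the B cyclins that activate CDK1, stood at 179.5, 235 and 203 CPM under LUC against 168, 156 and 162 CPM under Arid3a-FLAG (-0.34, SE 0.11, adjusted p = 0.078). All 3 Arid3a-FLAG libraries were below all 3 LUC libraries. Ccnb1, the other B cyclin, stood at 236, 292 and 273 CPM under LUC against 273, 266 and 273 CPM under Arid3a-FLAG (0.02, adjusted p = 0.915), and Ccna2, cyclin A, had a log2 fold change of 0.07 (adjusted p = 0.684). Ccnb1 shares sequence with annotated copies, Ccnb1-ps holding 18.9% of its 50-base words, so its value is uncertain.

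CDK1 itself and its small binding subunits lay lower without passing. Cdk1 had 208, 294 and 222 CPM under LUC against 201, 197 and 206 CPM under Arid3a-FLAG (-0.26, SE 0.13, adjusted p = 0.225). The groups did not overlap, and LUC library 2 was the highest by a wide margin. In leave-one-out fits the log2 fold change of Cdk1 ran from -0.33 to -0.08. LUC library 2 was also highest for Cks1b (162, 240.1 and 167 CPM under LUC) and Cks2 (131, 173 and 129 CPM). Their log2 fold changes were -0.28 and -0.29 (adjusted p = 0.245 and 0.174), and the groups of Cks1b overlapped. In leave-one-out fits Cks1b ran from -0.35 to -0.06 and Cks2 from -0.35 to -0.12. The phosphatases that activate CDK1 were nearly equal in size, Cdc25b at -0.23 and Cdc25c at -0.22 (adjusted p = 0.139 and 0.198), each with separate groups. The mitotic kinases Aurka (-0.12) and Plk1 (0.05) overlapped between groups, as did Ccnf (0.07), a substrate receptor of an SCF ubiquitin ligase. Cks2 and Plk1 share 29.7% and 6.56% of their words with Gm15452 and Plk-ps1, and are uncertain too.

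The centrosomal kinase Nek2 had the lowest level of the list, with 109, 25 and 25 counts with LUC and 20, 32 and 26 counts with Arid3a-FLAG. Its log2 fold change of -0.97 (SE 0.53, adjusted p = 0.280) came from LUC library 1 and was 0.11 without it. Compared per length of exon, LUC levels ran from 0.685 RPKM, CPM per kilobase of exon, for Nek2 to 208 RPKM for Cks2, with a median of 27.1 RPKM. Kif11 was second lowest at 1.57 RPKM. The other 52 genes exceeded 25 CPM in every library.

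Genes of chromosome structure gave no call in edgeR, DESeq2 or limma-voom (6 tested, median -0.08, 1 lower and 0 higher at an unadjusted p under 0.05). Mki67, the proliferation antigen that coats mitotic chromosomes, had 757, 488 and 634 CPM under LUC against 585, 607 and 579 CPM under Arid3a-FLAG (-0.09, SE 0.14, adjusted p = 0.745). The LUC libraries of Mki67 spanned the whole range of the other group. Top2a, the topoisomerase that untangles sister chromatids, was at 749.8, 714 and 743 CPM under LUC against 739.7, 719 and 679.7 CPM under Arid3a-FLAG (-0.05, SE 0.09, adjusted p = 0.795). The condensin subunits Ncaph (-0.20), Ncapd2 (-0.08) and Ncapg (0.11), and Cdca2, which targets a phosphatase to chromatin (-0.13), had adjusted p of 0.179 to 0.613.

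In the list of other condensin and cohesin genes 3 of 16 tested rose and none fell (median 0.17), where 3.43% of all genes rose and 3.87% fell with a median of -0.03. Smc2, the core ATPase of condensin, rose from 176 ± 4.98 to 222 ± 8.01 CPM (0.33, SE 0.08, adjusted p = 0.039). Stag1, a cohesin subunit, rose from 60.4 ± 3.13 to 78.4 ± 3.62 CPM (0.38, adjusted p = 0.031), and Wapl, which releases cohesin from chromatin, from 148.5 ± 8.40 to 187 ± 7.14 CPM (0.33, adjusted p = 0.044). Each of these 3 calls was lost in at least 4 of 6 leave-one-out fits (adjusted p up to 0.187, 0.157 and 0.198).

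At the centromere and kinetochore 1 of 8 genes fell, where 3.87% of all genes did. Cenpa (ENSMUSG00000029177, chromosome 5, 30666777 to 30674830, plus strand) encodes the histone H3 variant that marks centromeres. It stood at 290.1, 315 and 307 CPM under LUC against 202, 230.2 and 233 CPM under Arid3a-FLAG, and every Arid3a-FLAG library was lower by more than 50 CPM. Its log2 fold change was -0.46 (SE 0.09, 95% interval -0.66 to -0.25, adjusted p = 0.018), and the level fell by 27.1%. The call was lost without Arid3a-FLAG library 1, 2 or 3 (adjusted p = 0.127, 0.087 and 0.054) and held without any LUC library. Hjurp, the chaperone that loads CENP-A, had 448, 295 and 403 CPM under LUC against 376, 380.3 and 373 CPM under Arid3a-FLAG (-0.02, adjusted p = 0.940).

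The other kinetochore genes lay between -0.22 and 0.15 on the log2 scale, and none passed. The NDC80 complex members Nuf2 (-0.22, adjusted p = 0.180) and Ndc80 (-0.07, adjusted p = 0.719) bind microtubules, Sgo1 (-0.11) guards centromeric cohesion and Kif2c (-0.12) removes faulty attachments. Cenpe (0.15, adjusted p = 0.336), the kinetochore kinesin, lay higher in all 3 Arid3a-FLAG libraries, and Cenpf (0.01), a large kinetochore protein, overlapped. The 4 genes of the spindle checkpoint did not pass in edgeR, DESeq2 or limma-voom, and none had an unadjusted p under 0.05. Bub1 and Bub1b lay at 0.02 and 0.05, Bub3 at -0.16 and Ttk at -0.13.

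A separate list of 38 other kinetochore genes, none of them a member, held no call in edgeR. Of these, 32 lay below 0 (54.7% of all genes did), with a median of -0.09 (-0.03 over all genes). At an unadjusted p under 0.05, 7 were lower and 1 higher, against 13.9% and 11.7% of all genes.

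The chromosomal passenger complex corrects attachments and then moves to the midzone for cytokinesis. Its 3 listed genes were all lower in every Arid3a-FLAG library, as were 16.5% of all genes, and none passed in edgeR, DESeq2 or limma-voom. Aurkb, its kinase, stood at 217, 236 and 201 CPM under LUC against 181.5, 187 and 180.5 CPM under Arid3a-FLAG (-0.25, SE 0.09, adjusted p = 0.116). Birc5, survivin, stood at 174, 225 and 161 CPM under LUC against 151, 148 and 149.6 CPM under Arid3a-FLAG (-0.32, SE 0.12, adjusted p = 0.130). Cdca8, borealin, stood at 178, 219.8 and 172 CPM under LUC against 155, 159 and 160.2 CPM under Arid3a-FLAG (-0.26, SE 0.11, adjusted p = 0.148). In each of them LUC library 2 was the highest, and all 3 had an unadjusted p under 0.05 (13.9% of all genes were lower at that level). In leave-one-out fits Aurkb ran from -0.28 to -0.18 on the log2 scale, Birc5 from -0.39 to -0.15 and Cdca8 from -0.30 to -0.13. Cdca8 shares exon bases with a protein-coding gene on the opposite strand. Incenp, another subunit of the complex, was listed with the other kinetochore genes, and its groups overlapped. It had 232 ± 3.92 CPM under LUC against 217 ± 12.2 CPM under Arid3a-FLAG (-0.09, edgeR adjusted p = 0.528).

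Of 8 spindle genes 2 fell, Psrc1 and Nusap1, where 3.87% of all genes did. Psrc1 (ENSMUSG00000068744, chromosome 3, 108383839 to 108388231, plus strand) encodes a spindle protein that helps chromosomes align. It had 150.3, 120.0 and 139.9 CPM under LUC against 94.2, 105 and 94.4 CPM under Arid3a-FLAG, without overlap. The log2 fold change was -0.48 (SE 0.10, 95% interval -0.71 to -0.25, adjusted p = 0.022), and the level fell by 28.3%. In this gene LUC library 2 was the lowest of its group. The call held only without LUC library 2 among the 6 leave-one-out fits (adjusted p = 0.00062, and 0.058 to 0.126 in the other 5).

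Nusap1 (ENSMUSG00000027306, chromosome 2, 119618298 to 119651244, plus strand) encodes a protein that bundles spindle microtubules around chromosomes. It had 138, 169 and 153 CPM under LUC against 121, 116 and 113 CPM under Arid3a-FLAG, again without overlap. Its log2 fold change was -0.39 (SE 0.10, 95% interval -0.61 to -0.18, adjusted p = 0.034), and the level fell by 23.9%. The call held without LUC library 1 or 2 and was lost without LUC library 3 (adjusted p = 0.061) or any Arid3a-FLAG library (0.128 to 0.163). Exons of Nusap1 overlap those of Oip5, a centromere gene on the opposite strand, over 172 bases, and Oip5 had a log2 fold change of -0.20 (adjusted p = 0.314). For Cenpa and Psrc1 no exon overlap was annotated.

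The upstream sequences of Psrc1 and Nusap1 are given because, unlike Cenpa, they lack the exact letters TTTGAA that most of the list shares. Variants of these letters were not searched. Each shows the 150 bases before a RefSeq start, 5′ to 3′ on the gene's strand, with TTTGAA and CCAAT, on either strand, in capitals. Psrc1 is shown at chr3:108383654-108383803 and Nusap1 at chr2:119618148-119618297, both on the plus strand of GRCm38.p6. The stretch before another RefSeq start of Psrc1, chr3:108383688-108383837, is not shown.
Psrc1: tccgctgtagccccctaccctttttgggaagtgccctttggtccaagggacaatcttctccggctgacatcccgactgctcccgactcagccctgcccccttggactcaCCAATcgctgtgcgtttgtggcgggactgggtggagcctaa
Nusap1: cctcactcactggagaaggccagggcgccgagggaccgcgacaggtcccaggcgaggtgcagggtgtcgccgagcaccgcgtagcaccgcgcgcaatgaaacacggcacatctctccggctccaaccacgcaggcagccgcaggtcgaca

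In its window Cenpa held 2 CCAAT matches, 109 and 86 bases before the RefSeq start, and its TTTGAA 16 bases after it, as printed above. That start, 30666886, lies inside the gene as annotated from 30666777, so these positions hold for the RefSeq start only. In the stretches shown Psrc1 held 1 CCAAT and Nusap1 none. Neither held TTTGAA in its whole window, nor did the other window of Psrc1. The 35 genes with TTTGAA had a median log2 fold change of -0.07, with 24 below 0, and the 13 without it had a median of -0.23, with 10 below 0. Of the genes without it, Birc5, Cdc25b, Cks2, Ncaph, Nek2, Nuf2, Nusap1, Psrc1, Sgo1 and Tacc3 lay below 0. Cenpe (0.15), Bub1 (0.02) and Ccnb1 (0.02), also without it, lay above 0. For ATTAAA or ATCAAA the medians were -0.14 in 8 genes with the letters and -0.10 in 40 without. These are descriptions of small groups of genes, and no difference between them was tested.

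Of the remaining spindle genes, Tacc3, which links clathrin and microtubules in spindle fibres, had 192, 231 and 205 CPM under LUC against 166, 177.5 and 189 CPM under Arid3a-FLAG (-0.24, SE 0.10, adjusted p = 0.162). Kif15 (-0.14), a kinesin of the bipolar spindle, and Ckap2 (-0.12) lay below 0, while Tpx2 (0.01), the activator of Aurora A on the spindle, and Hmmr (0.12) lay above it, all with overlapping groups.

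Kif11, the motor that pushes spindle poles apart, had a log2 fold change above 0 and, after Nek2, the second largest SE of the list. It had 7.97, 18.0 and 9.12 CPM under LUC against 31.6, 22.4 and 11.7 CPM under Arid3a-FLAG. The groups overlapped, with LUC library 2 above Arid3a-FLAG library 3. Its log2 fold change was 0.91 (SE 0.36, 95% interval 0.13 to 1.70, adjusted p = 0.141) and ran from 0.56 to 1.37 in leave-one-out fits. Without LUC library 2 Kif11 passed (adjusted p = 0.013), and with no filter on low counts it passed too, while DESeq2 gave an adjusted p of 0.286. Its level per length was far below that of other motors of the list, such as Kif15 (10.3 RPKM with LUC), Kif23 (9.91 RPKM) and Kif20a (20.5 RPKM). The kinesins of chromosome arms and the midzone, Kif4 (0.05), Kif14 (0.20) and Kif20b (0.05), did not pass in edgeR, DESeq2 or limma-voom, none had an unadjusted p under 0.05, and Kif14 lay higher in every Arid3a-FLAG library (adjusted p = 0.199).

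**Figure D3:**
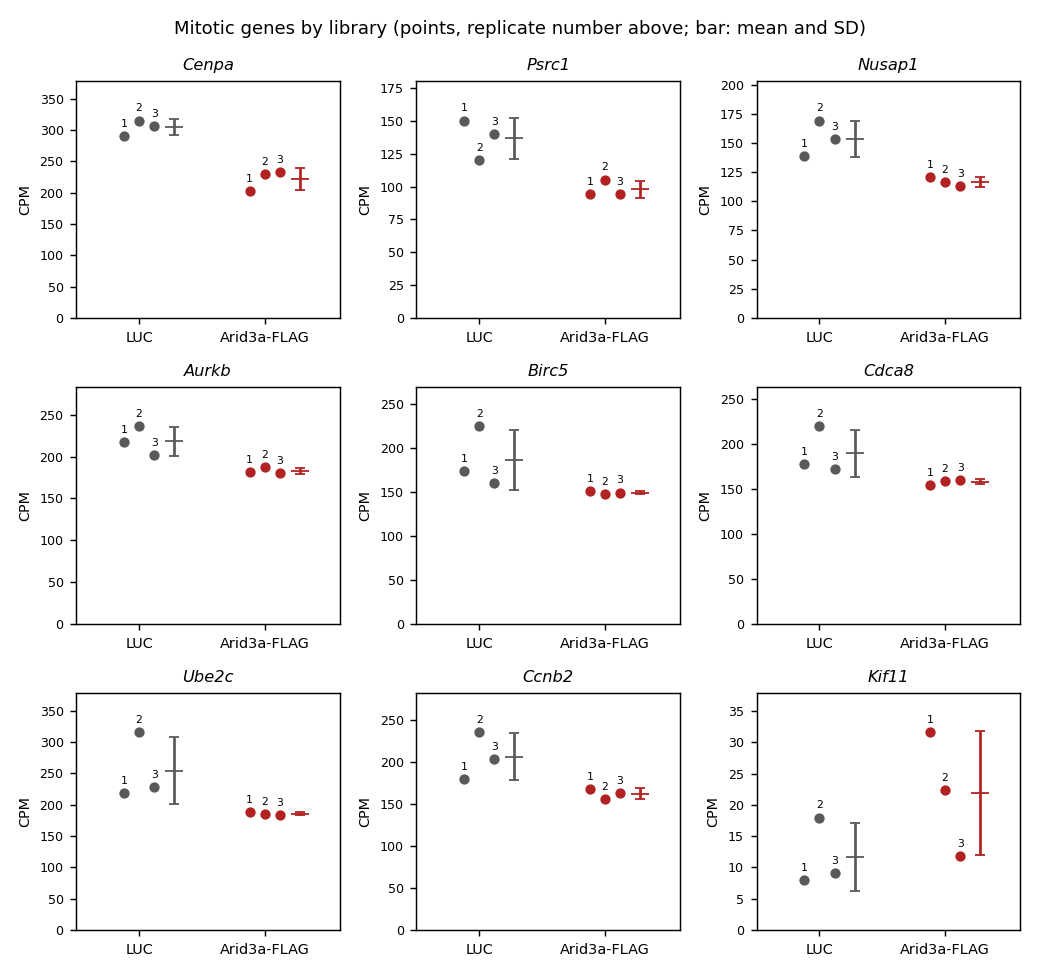
Level in CPM (y axes, each from 0) of Cenpa, Psrc1 and Nusap1, of the passenger complex genes Aurkb, Birc5 and Cdca8, and of Ube2c, Ccnb2 and Kif11, in each LUC (grey) and Arid3a-FLAG (red) library, with the replicate number above each point and the mean and SD (n = 3) beside it. In the first 8 genes every red point lies below every grey point, and in Kif11 the groups overlap. These 8 were picked from the 19 of the 54 genes that lie so, as do 16.5% of all genes.

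At mitotic exit none of 4 genes passed in edgeR, 2 were lower at an unadjusted p under 0.05 and none higher, DESeq2 called Ube2c and limma-voom none. Ube2c, the ubiquitin-conjugating enzyme of the anaphase-promoting complex, stood at 219, 315 and 228 CPM under LUC against 188, 185 and 184 CPM under Arid3a-FLAG (-0.45, SE 0.13, adjusted p = 0.065). Its 3 Arid3a-FLAG libraries lay within 5 CPM of each other, and LUC library 2 was far above the other LUC libraries. Without LUC library 2 Ube2c passed (adjusted p = 0.015), in a fit that called 7.83% of all genes lower, against 3.87% with all libraries. Over the leave-one-out fits its log2 fold change ran from -0.52 to -0.25. Cdca3, which helps degrade the CDK1 inhibitor Wee1, stood at 149, 178 and 137 CPM under LUC against 117.5, 128 and 123 CPM under Arid3a-FLAG (-0.33, SE 0.11, adjusted p = 0.084). Cdc20, the activator of the complex, was at 249.7, 355 and 293 CPM under LUC against 293, 293 and 297 CPM under Arid3a-FLAG (-0.02, adjusted p = 0.924), and Espl1, the protease separase, at -0.05 (adjusted p = 0.818). Cdc20 shares 10.3% of its words with Gm7856.

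In the list of 18 subunits and partners of the anaphase-promoting complex 1 rose and none fell (median -0.10). Of all genes 3.43% rose and 3.87% fell. Cdc27, a scaffold subunit, rose from 107 ± 8.66 to 139 ± 4.6 CPM (0.38, SE 0.09, adjusted p = 0.031), a call lost in 4 of 6 leave-one-out fits (adjusted p up to 0.155). Among regulators of mitotic entry, 0 of 14 passed in edgeR (1 lower and 0 higher at an unadjusted p under 0.05), and among 30 further spindle genes 0 passed (2 higher and 4 lower). None of 22 transcription factors that drive or repress the G2/M programme passed in edgeR, with 3 higher and 0 lower by unadjusted p. Foxm1, an activator of late mitotic genes, had 137 ± 16.1 CPM under LUC against 127 ± 9.45 CPM under Arid3a-FLAG (-0.10, adjusted p = 0.585). Mybl2, the B-MYB partner of MuvB, had 150.4 ± 6.88 and 135 ± 6.16 CPM (-0.15, adjusted p = 0.285). The DNA replication list held no call in edgeR among 34 tested (2 lower and 1 higher at an unadjusted p under 0.05) and a median of -0.05. Over these lists together, counting each gene once, 4 rose and 2 fell among 207 tested, against 3.43% and 3.87% of all genes. DESeq2 called 7 higher and 3 lower of them, against 5.66% and 5.8%.

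Across libraries the list did not move as a block. LUC library 2 gave the highest value for 25 of the 54 genes and the lowest for 12, against 31.3% and 25.8% of all genes. The 25 genes highest there had a median exon length of 4083 bases, and the 12 lowest there 8476 bases. Over the 54 genes, the difference of LUC library 2 from the mean of LUC libraries 1 and 3, in log2 CPM, correlated with the log2 of exon length at Pearson r = -0.48 and Spearman rho = -0.58. Over 13614 genes r was -0.29 and rho -0.40. These correlations run across genes, which share libraries and are not independent replicates. Genes with few exon bases such as Cks1b (0.54 above), Ube2c (0.50) and Cks2 (0.42) lay high in that library. Genes with many, such as Hjurp (-0.52) and Mki67 (-0.51), lay low. Some went against the trend, among them Bub3 (7006 bases, 0.39) and Psrc1 (3364 bases, -0.27).

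**Figure D4:**
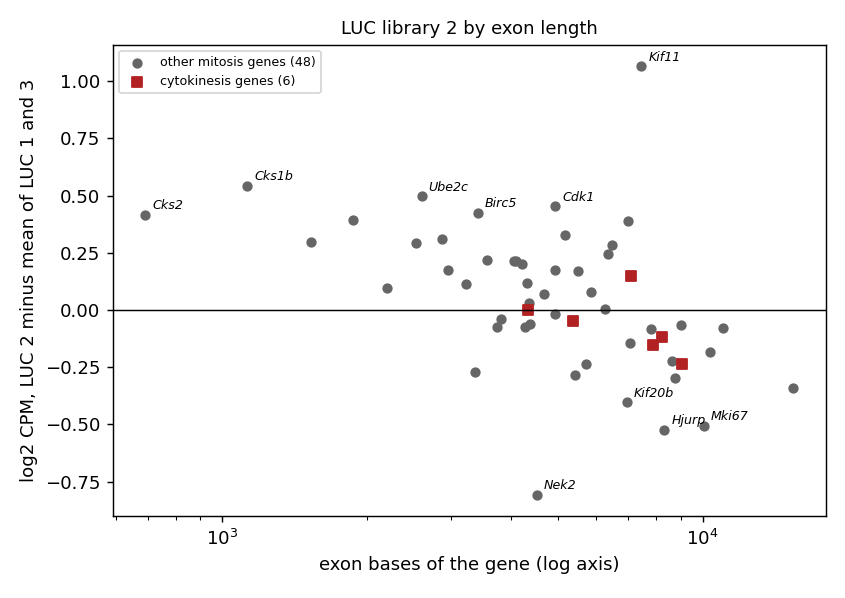
Difference in log2 CPM between LUC library 2 and the mean of LUC libraries 1 and 3 (y axis) against exon bases of the gene (x axis, log scale), for the 6 cytokinesis genes (red squares) and the other 48 (grey points). Points fall from left to right (Spearman rho = -0.58 over 54 genes), with Kif11 and Nek2 far from the rest.

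The log2 fold change itself correlated with the log2 of exon length over the 54 genes (Pearson r = 0.36, Spearman rho = 0.46), and over all genes less so (0.22 and 0.32). Without LUC library 2 the values for the 54 were 0.13 and 0.17. In that fit 6 genes of the list fell (Ccnb2, Cdc25b, Cenpa, Nusap1, Psrc1 and Ube2c) and 2 rose (Kif11 and Kif20a), against 7.83% and 8.52% of all genes. With the trend on exon length taken out of each library, a correction added once the data had been seen, Cenpa, Nusap1 and Psrc1 fell and none rose (4.72% and 4.46% of all genes), 41 of 54 lay below 0 and the median was -0.13. The part of LUC library 2 in the lower values of single genes was not otherwise tested.

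The Arid3a-FLAG libraries were the more alike. The median coefficient of variation over the 54 genes was 9.56% among the LUC libraries and 3.4% among the Arid3a-FLAG libraries, and it was larger with LUC in 46 of 54. Over all genes the medians were 13.6% and 7.24%, and 71.2% varied more with LUC. Chi-square per gene, a measure of how far a pair of libraries differs, was 29.8 and 33.9 for the pairs with LUC library 2. It was 7.95 between LUC libraries 1 and 3, and 4.87 to 6.82 among Arid3a-FLAG pairs. The part of LUC library 2 in the coefficients of variation was not tested.

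**Figure D5:**
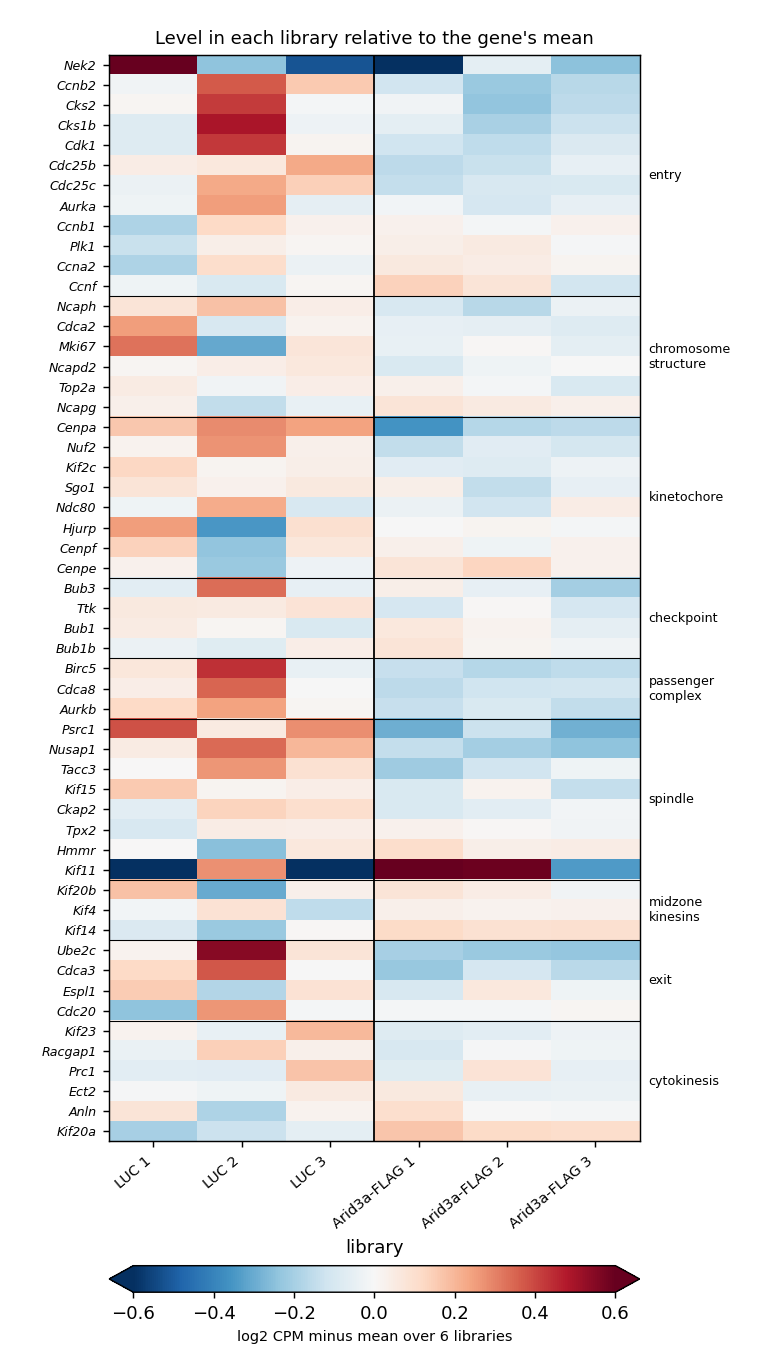
Log2 CPM of each gene minus its mean over the 6 libraries (colour, limits at -0.6 and 0.6), with 54 genes in rows grouped by role and libraries in columns, LUC left of the line and Arid3a-FLAG right. LUC 2 holds the highest of the 6 values in 25 rows and the lowest in 12, Kif20a is higher in each Arid3a-FLAG library than in each LUC library, and values of Nek2 and Kif11 run past the colour limits.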

How the data were processed

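RNA-seq libraries from 3 LUC and 3 Arid3a-FLAG samples were compared. The authors deposited 1 table of raw counts per gene, made with fastp, HISAT2 2.0.5 and featureCounts on mm10, per the submitters' processing notes. Annotation release and strand setting: not given in the sources used here. The table held 53802 entries, 1 of them the construct. It was fitted whole with edgeR 4.0.16 in R 4.3.3 (filterByExpr, TMM factors, quasi-likelihood test on group, Benjamini-Hochberg adjustment over 13631 genes, threshold 0.05). The construct was kept out of the tests. CPM used TMM-scaled totals, and RPKM used union exon lengths from GENCODE M21. The fitting steps were tested on simulated data. Alternatives were DESeq2 1.42.0, limma 3.58.1 (voom), other scaling factors and filters, a replicate block, leaving out the 20 most abundant genes or each library in turn, and a correction for exon length chosen after seeing the data. The members and lists were chosen with earlier results of these data known. Named were all members, Arid3a, up to 4 genes past the threshold of each other list, and Arhgef2, Myh10, Foxm1 and Mybl2. Cdc23 and Oip5, which overlap members, and Incenp, of the passenger complex, were named after their values were seen. Motifs were searched in RefSeq windows (GRCm38.p6). With 3 libraries a group and 15728150 to 18249053 counts in each, both counting error and the spread between libraries limit precision.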

Additional observations from a re-analysis of the deposited data

How the results depend on the processing

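Cenpa, Psrc1 and Nusap1 kept their direction in all 15 alternatives, and each lost its call when any 1 Arid3a-FLAG library was left out. Across fits that left out 1 library, members past the threshold ran from 0 to 6 lower and from 0 to 2 higher, the cytokinesis genes from 0 to 1 higher with a median log2 fold change of -0.037 to 0.058 (-0.081 with the exon length correction), and the other listed genes from 1 to 6 lower and from 0 to 17 higher. Over all genes these fits gave 118 to 1095 lower and 115 to 1191 higher. Without a filter on low counts there were 6 members lower and 1 higher, 7 other listed genes lower and 7 higher, and 1076 genes lower and 869 higher in all. DESeq2 called 5 members lower, 7 other listed genes higher and 771 genes higher in all. At an adjusted p under 0.01 there were 0 members lower, 1 other listed gene lower and 0 higher, and 137 genes lower and 125 higher in all. Without the 20 most abundant genes 1 other listed gene was lower. Deviations of same-numbered libraries correlated at -0.103, -0.115 and 0.125, so the numbers were not taken as pairs. With the replicate number as a block, 2 members were lower (Cenpa and Psrc1, with Nusap1 at an adjusted p of 0.056), 1 other listed gene lower and 1 higher, where 3.89% of all genes were lower and 3.01% higher. With the stricter filter of 5 CPM in 3 libraries Nek2 was not tested. Counts of 20 to 109 limit Nek2, and the cause of the other shifts was not tested.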
